A study of Mus musculus with 6 samples.

Results

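This account concerns 9 genes of the vascular endothelial growth factor (VEGF) system in cells sorted from the limbs of newborn mice: the receptor genes Kdr, Flt1 and Flt4, the co-receptor genes Nrp1 and Nrp2, and the ligand genes Vegfa, Vegfb, Vegfc and Pgf. They were chosen by name, as genes of 1 family of ligands and receptors, with earlier results of these data known. All 9 were among the 18193 genes measured, and together they were represented by 22 of 45037 probe sets, a probe set being the group of array probes that reads 1 transcript. Expression was measured on 6 Affymetrix arrays of the mouse genome, with RNA that had been amplified in a pair of rounds. Cells came from the fore and hind limbs of mice at postnatal day 3, pooled by litter, released with collagenase and separated by flow cytometry. Both populations were titled as lacking CD45, an antigen of leukocytes, and Ter119, an antigen of red-cell precursors. The first, Tie2-negative here, was also titled as negative for Itgav, the alpha V chain of integrins, and for Tie2, a receptor for angiopoietins. The second, Tie2-positive here, was titled as Itgav-low and Tie2-positive. The antibodies that the protocol lists include none against Ter119. Each population had 3 arrays. The labels give all mice as wild type and elsewhere call them GFP-labelled, give no treatment, and leave unsaid whether each array had its own litter. The p-values therefore measure a spread between samples that may be technical.

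VEGF ligands are secreted dimers that bind receptor tyrosine kinases on endothelial cells. VEGF-A signals mainly through the receptor encoded by Kdr, which drives endothelial survival, migration and division, while the receptor encoded by Flt1 binds VEGF-A, VEGF-B and placental growth factor tightly and can act as a decoy. VEGF-C is best known as a ligand of the receptor encoded by Flt4, which lymphatic endothelium carries and which sinusoidal endothelium of bone marrow carries as well. Neuropilins are co-receptors that bind VEGF forms and class 3 semaphorins.

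The promoters of the 4 genes that rose in the Tie2-positive cells, with that of Vegfa for comparison because its level overlapped between the populations, are shown as the 250 bases before the annotated start (RefSeq, GRCm38.p6), written 5′ to 3′ in the direction of the gene. Capitals mark the GC box GGGCGG, a motif bound by Sp factors, or its reverse complement CCGCCC.
Kdr, chr5:75978456-75978705, minus strand: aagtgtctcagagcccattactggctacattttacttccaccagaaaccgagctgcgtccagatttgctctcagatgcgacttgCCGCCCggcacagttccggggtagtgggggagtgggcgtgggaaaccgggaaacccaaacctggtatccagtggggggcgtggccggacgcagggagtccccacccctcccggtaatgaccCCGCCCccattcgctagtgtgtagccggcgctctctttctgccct
Flt4, chr11:49609429-49609678, plus strand: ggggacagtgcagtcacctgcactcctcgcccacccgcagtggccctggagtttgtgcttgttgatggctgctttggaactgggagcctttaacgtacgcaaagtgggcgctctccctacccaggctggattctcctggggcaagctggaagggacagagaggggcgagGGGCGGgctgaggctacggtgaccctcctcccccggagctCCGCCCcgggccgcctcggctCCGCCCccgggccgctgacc
Nrp1, chr8:128358823-128359072, plus strand: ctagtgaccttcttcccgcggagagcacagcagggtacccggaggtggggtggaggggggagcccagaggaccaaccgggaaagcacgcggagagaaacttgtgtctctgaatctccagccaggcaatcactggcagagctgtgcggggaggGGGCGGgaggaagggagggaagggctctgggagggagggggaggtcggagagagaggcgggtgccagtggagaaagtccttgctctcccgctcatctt
Vegfc, chr8:54077282-54077531, plus strand: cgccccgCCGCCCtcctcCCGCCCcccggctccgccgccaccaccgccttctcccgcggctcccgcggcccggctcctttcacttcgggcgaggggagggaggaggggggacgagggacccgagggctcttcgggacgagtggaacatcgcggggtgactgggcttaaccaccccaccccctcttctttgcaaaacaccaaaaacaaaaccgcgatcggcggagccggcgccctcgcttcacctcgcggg
Vegfa, chr17:46032378-46032627, minus strand: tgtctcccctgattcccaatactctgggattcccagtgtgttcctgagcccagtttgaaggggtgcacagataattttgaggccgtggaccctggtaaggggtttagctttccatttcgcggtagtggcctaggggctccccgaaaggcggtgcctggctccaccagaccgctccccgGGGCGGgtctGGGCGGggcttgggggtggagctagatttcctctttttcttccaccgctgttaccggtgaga

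All 9 genes had a promoter window in the RefSeq table, 11 windows in all because Vegfa and Pgf had a pair each. The GC box, searched on both strands with overlaps allowed, lay in 10 of the 11 windows, against 32.7% of all 32851 windows and 75% of the 9837 windows that were at least as rich in G and C as the poorest window of these genes. G and C made up 59.2 to 76.4% of the bases of these windows, against a median of 52.4% over all windows. Of the motifs CCGGAA and CAGGAA, which hold the core that ETS factors bind, the first lay in the Kdr window and in 12% of all windows, and the second in those of Nrp2 and Vegfa and in 25.7% of all. AGATAA, the core bound by GATA factors, lay in the window of Vegfa that is shown and in 9.99% of all windows. ACGTG, the core of the hypoxia response element, lay in the other window of Vegfa and in 16.6% of all. The GC box was thus shared by genes that rose and genes that did not.

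Tek, the gene of the Tie2 antigen, read 4.79 to 4.90 on the Tie2-negative and 9.80 to 12.06 on the Tie2-positive arrays, which checks the sort and is no finding. Tek is also 1 of the 14 pan-endothelial marker genes read here, such as Cdh5 and Cldn5. All 14 lay higher on every Tie2-positive array than on any Tie2-negative array, which held for 15.2% of all genes. Of the 14, 9 passed the test over all genes, Tek among them, where 4.86% of all genes were called higher. The Tie2-positive arrays differed from one another: the median of 8 neutrophil genes was 6.03 in replicate 1, 12.11 in replicate 2 and 13.51 in replicate 3, and the median of 8 megakaryocyte and platelet genes was 6.78, 10.02 and 8.65. On the Tie2-negative arrays 6 erythroid genes had medians of 11.26 to 12.24 and 7 B-lineage genes medians of 7.67 to 10.15, against 5.38 to 8.14 and 5.63 to 6.09 on the Tie2-positive arrays. The deposited values carry no detection calls, so whether a low value lay above background was not analysed. The 3′ minus 5′ difference of the Actb and Gapdh control probe sets, a measure of RNA length, was 1.44 to 1.81 on the Tie2-positive and 1.84 to 2.02 on the Tie2-negative arrays, and its part in the results was not tested.

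Of the 9 genes 4 rose in the Tie2-positive population and none fell. The risers were Nrp1, Kdr, Vegfc and Flt4, that is 3 of the 5 receptor genes and 1 of the 4 ligand genes. Changes are Tie2-positive minus Tie2-negative in log2 units after quantile normalization, and a gene was called to rise or fall where limma's test, with Benjamini-Hochberg adjustment over all 18193 genes, gave an adjusted p under 0.05. Over all genes 4.86% were called higher and 2.53% lower. At an unadjusted p under 0.05 limma gave 5 of the 9 genes and 28.6% of all genes. The lowest Tie2-positive value lay above the highest Tie2-negative value for 6 of the 9 genes (all 5 receptor genes and Vegfc), which held for 15.2% of all genes, and the reverse held for 0 of the 9 genes and 23.9% of all. The median change was 2.35 over the 9 genes, 3.69 over the 5 receptor genes and -0.16 over the 4 ligand genes, against -0.11 over all genes. Leaving out Tie2-negative replicate 1 or 2 left 0 of all genes called by limma (smallest adjusted p 0.0518 and 0.0607), with 4012 and 3980 genes, 6 and 5 of the 9 among them, at an unadjusted p under 0.05. Each call below was lost in both of those fits. In a fit added after the data were seen, Tie2-positive replicate 1 stood alone against the Tie2-negative arrays and was taken to vary as they do. There 6 of the 9 genes were called higher, as were 11% of all genes, and 1, Vegfa, was called lower, as were 9.03% of all genes. These are bulk samples, so fewer cells of a type and less RNA per cell cannot be told apart.

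**Figure D1:**
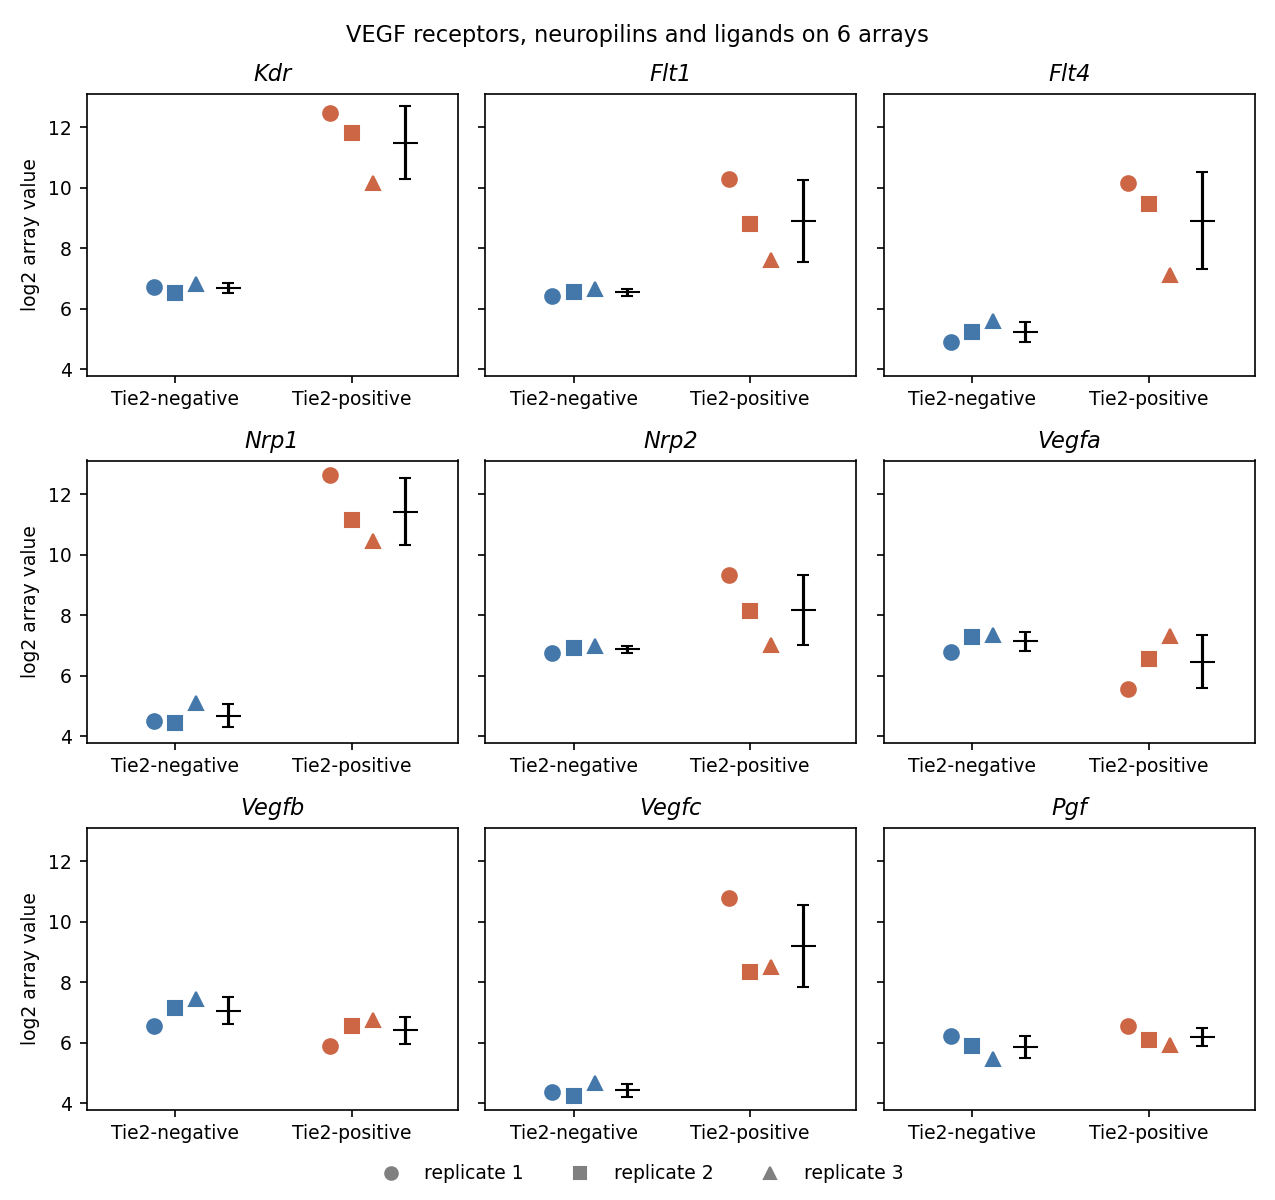
Log2 array values of the 9 genes on the 3 Tie2-negative (blue) and 3 Tie2-positive (orange) arrays, after quantile normalization, with the shape of a point giving the replicate and the bar the mean ± SD; levels are not comparable between genes. Kdr, Nrp1 and Vegfc stand apart by 3.32, 5.37 and 3.67 between the nearest arrays, while the values of Vegfa, Vegfb and Pgf overlap.

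Kdr, the main signalling receptor for VEGF-A, rose in the Tie2-positive cells. It read 6.73, 6.51 and 6.82 on Tie2-negative replicates 1, 2 and 3 and 12.49, 11.82 and 10.15 on Tie2-positive replicates 1, 2 and 3. The Tie2-negative values lay close together, and even the lowest Tie2-positive value, in replicate 3, exceeded them by 3.32. The rise was 4.80 ± 0.57 (SE, n = 3 and 3 arrays; adjusted p in limma 0.011), a 27.8-fold difference of array values, and its rise ranked 52 among the 18193 genes. Kdr has 1 probe set on the array, so no other set of probes checks it.

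Flt1, the receptor that binds VEGF-A, VEGF-B and placental growth factor, did not pass in the probe set with the highest mean, although its arrays did not overlap. That probe set read 6.41, 6.57 and 6.65 on the Tie2-negative and 10.30, 8.79 and 7.61 on the Tie2-positive replicates 1, 2 and 3. The change was 2.35 ± 0.63 (SE, n = 3 and 3 arrays; adjusted p in limma 0.0692), with a 95% interval of 0.87 to 3.84. The call turned on the probe set. Another probe set of Flt1 read 4.34, 4.75 and 4.22 against 10.38, 9.07 and 7.76, a change of 4.63 ± 0.60 (SE, n = 3 and 3 arrays) that passed over all probe sets (limma adjusted p = 0.0129). The remaining pair changed by 2.37 and 1.70 and did not pass (limma adjusted p = 0.061 and 0.131). All 4 probe sets were higher on each Tie2-positive array than on any Tie2-negative array. Over the mean of the 4 probe sets the change was 2.77 and passed (limma adjusted p = 0.0446). The change of the probe set with the highest mean passed with array weights (limma adjusted p = 0.0069). It also passed without Tie2-positive replicate 1 (0.0255) or 3 (0.0209). For Tie2-positive replicate 1 alone it was 3.76. Which transcript forms of Flt1, membrane-bound or soluble, each probe set reads was not analysed here.

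Flt4, the receptor for VEGF-C, rose in the probe set used and not in the other. The probe set used read 4.91, 5.22 and 5.58 on the Tie2-negative and 10.16, 9.47 and 7.13 on the Tie2-positive replicates 1, 2 and 3. No values overlapped, but Tie2-positive replicate 3 lay nearer to the Tie2-negative arrays than to the other Tie2-positive arrays. The rise was 3.69 ± 0.74 (SE, n = 3 and 3 arrays; adjusted p in limma 0.0348). It did not pass without Tie2-negative replicate 3 (limma adjusted p = 0.0905) or Tie2-positive replicate 2 (0.0977). In the other probe set the replicates read 6.20, 6.48 and 6.25 against 7.47, 6.97 and 6.19, overlapped, and differed by 0.56 ± 0.33 (SE, n = 3 and 3 arrays; adjusted p in limma 0.318 over all probe sets). Over the mean of the pair the change was 2.13 and did not pass (limma adjusted p = 0.0601).

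Flt4 is carried by lymphatic and by sinusoidal endothelium, and markers of these types were read beside it. Prox1, the transcription factor that defines lymphatic endothelium, read 4.22 to 4.68 on the Tie2-negative and 4.29 to 4.55 on the Tie2-positive arrays, a change of 0.01 (limma adjusted p = 0.963). Of the 5 lymphatic markers 4 had a change above 0, with a median of 1.04, and 1 rose, Lyve1, which sinusoidal endothelium also makes. Mmrn1, which platelets also make, changed by 2.39 without overlap (limma adjusted p = 0.0677), Pdpn by 1.04 and Reln by -2.01. Among the 6 sinusoidal markers 5 rose, where 4.86% of all genes were called higher. Of these 5, Lyve1 also stands among the lymphatic markers and Mrc1 among the monocyte and macrophage markers read here. The scavenger receptor gene Stab2, 1 of the 5, read 5.24, 5.88 and 5.93 on the Tie2-negative and 10.28, 10.27 and 7.54 on the Tie2-positive replicates 1, 2 and 3. Like Flt4, Stab2 was lowest among the Tie2-positive arrays in replicate 3, as were Stab1, Mrc1 and Il6st. The pan-endothelial median was lowest there too (11.36, 10.31 and 9.01), so this order is not particular to sinusoidal markers. Lyve1 (6.91, 5.14 and 6.35) and Fcgr2b (9.36, 9.04 and 9.57) were lowest in Tie2-positive replicate 2.

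Nrp1, a co-receptor for VEGF-A and semaphorins, showed the largest change of the 9 genes, and its rise ranked 4 among the 18193 genes. It read 4.51, 4.44 and 5.10 on the Tie2-negative and 12.63, 11.17 and 10.47 on the Tie2-positive replicates 1, 2 and 3. The nearest arrays of the populations were 5.37 apart, more than the whole range of 2.16 among the Tie2-positive arrays. The rise was 6.74 ± 0.54 (SE, n = 3 and 3 arrays; adjusted p in limma 0.0103). The other probe sets of Nrp1 all changed the same way, by 5.99, 4.90 and 1.06. The first pair passed over all probe sets (limma adjusted p = 0.0101 and 0.0143) and the last did not (0.147). That last probe set read 6.10 to 6.72 on the Tie2-negative and 6.87 to 8.28 on the Tie2-positive arrays, so its populations lay 0.15 apart.

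Nrp2, the neuropilin that also binds VEGF-C, did not pass in any of its 4 probe sets. The probe set with the highest mean read 6.75, 6.92 and 6.97 on the Tie2-negative and 9.33, 8.15 and 7.02 on the Tie2-positive replicates 1, 2 and 3. Tie2-positive replicate 3 lay 0.05 above the highest Tie2-negative array, so its value was close to theirs. The change was 1.28 ± 0.54 (SE, n = 3 and 3 arrays; adjusted p in limma 0.175). Among its other probe sets the widest change was 2.95 ± 0.72 (SE, n = 3 and 3 arrays; adjusted p in limma 0.0641 over all probe sets), from 6.09, 5.60 and 5.41 to 10.35, 8.41 and 7.20. In 3 of the 4 probe sets the populations did not overlap. The change of the first passed with array weights (1.15, limma adjusted p = 0.0389) and without Tie2-positive replicate 3 (1.86, 0.0468). For Tie2-positive replicate 1 alone it was 2.44. Without Tie2-positive replicate 1 it was 0.70 and did not pass (limma adjusted p = 0.215).

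Vegfc was the ligand gene that rose in the Tie2-positive cells. It read 4.38, 4.24 and 4.66 on the Tie2-negative and 10.79, 8.34 and 8.52 on the Tie2-positive replicates 1, 2 and 3. Replicate 1 was the highest, and the lowest Tie2-positive array exceeded all Tie2-negative arrays by 3.67. The rise was 4.78 ± 0.63 (SE, n = 3 and 3 arrays; adjusted p in limma 0.0131), a 27.6-fold difference of array values. This probe set is of a type (suffix x_at) that can match several transcripts. The other pair of Vegfc probe sets, which is not of that type, rose by 4.11 ± 0.51 and 3.31 ± 0.55 (SE, n = 3 and 3 arrays; adjusted p in limma 0.0127 and 0.0231 over all probe sets).

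Vegfa, the ligand that drives most vessel growth, did not pass. It read 6.78, 7.29 and 7.36 on the Tie2-negative and 5.56, 6.54 and 7.30 on the Tie2-positive replicates 1, 2 and 3. Replicates 1 and 2 of the Tie2-positive population lay below all Tie2-negative arrays, and replicate 3 lay among them. The change was -0.68 ± 0.44 (SE, n = 3 and 3 arrays; adjusted p in limma 0.336), with a 95% interval of -1.72 to 0.37. The other Vegfa probe set read 6.73 to 6.89 on the Tie2-negative and 6.46 to 6.88 on the Tie2-positive arrays, a change of -0.15 ± 0.19 (SE, n = 3 and 3 arrays). The size of the change turned on Tie2-positive replicate 1: without it the change was -0.22 (limma adjusted p = 0.65), and for that array alone -1.58.

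Vegfb and Pgf, the genes of VEGF-B and placental growth factor, which bind the Flt1 receptor, did not pass either. Vegfb read 6.56, 7.16 and 7.45 on the Tie2-negative and 5.89, 6.56 and 6.76 on the Tie2-positive replicates 1, 2 and 3. Its change was -0.65 ± 0.32 (SE, n = 3 and 3 arrays; adjusted p in limma 0.228), with a 95% interval of -1.42 to 0.11. Pgf read 6.23, 5.90 and 5.46 against 6.54, 6.10 and 5.93, values that overlapped. Its change was 0.32 ± 0.26 (SE, n = 3 and 3 arrays; adjusted p in limma 0.424), with a 95% interval of -0.29 to 0.93. Each of the pair has 1 probe set on the array.

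Over all 22 probe sets of the 9 genes, 9 rose and 0 fell, where 3.39% of all 45037 probe sets were called higher. In 16 of the 22 every Tie2-positive value lay above every Tie2-negative value, which held for 13.1% of all probe sets. Probe sets of 1 gene read the same RNA and are not replicates. The genes with several probe sets differed in how far these agreed: the changes ran from 3.31 to 4.78 for Vegfc, from 1.70 to 4.63 for Flt1, from 0.82 to 2.95 for Nrp2, from 0.56 to 3.69 for Flt4 and from 1.06 to 6.74 for Nrp1. Without Tie2-negative replicate 1 or 2 the number of probe sets called was 0, without Tie2-negative replicate 3 it was 5, and without Tie2-positive replicate 3 it was 14, where 3.64% of all probe sets were called higher. For Tie2-positive replicate 1 alone, 18 were called higher and 1 lower, against 8.58% and 5.86% of all probe sets.

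**Figure D2:**
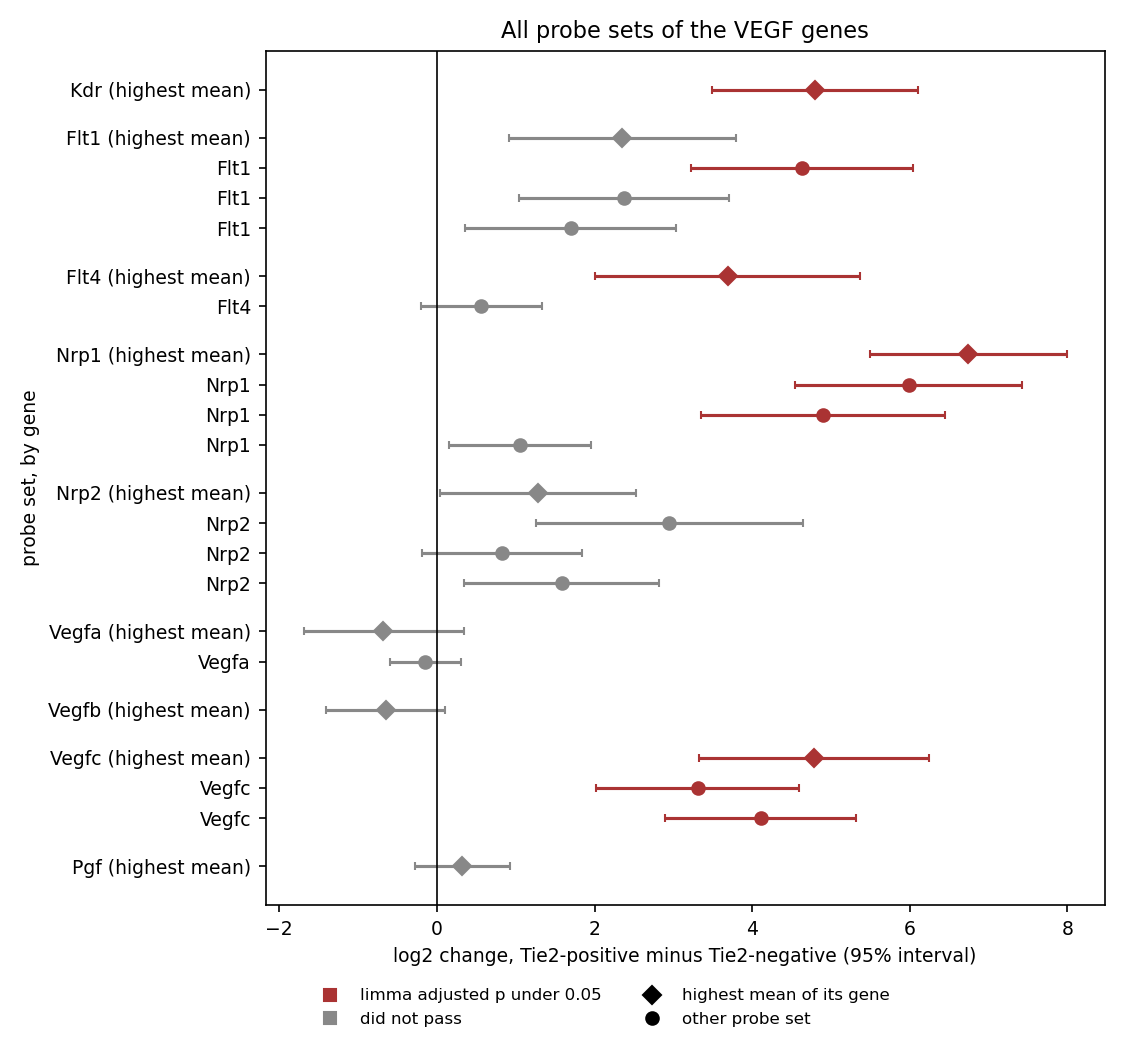
Log2 change with its 95% interval for each of the 22 probe sets of the 9 genes, from a fit over all probe sets, with diamonds for the probe set with the highest mean of its gene and red for an adjusted p under 0.05. All 15 probe sets of the receptor genes lie above 0, as do all 3 of Vegfc, while those of Vegfa and Vegfb lie below it without passing.

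The receptor genes differed more among the Tie2-positive than among the Tie2-negative arrays, and did so in one pattern. In all 15 probe sets of the receptor genes the highest Tie2-positive value was in replicate 1 and the lowest in replicate 3. These probe sets come from 5 genes, and the share of all probe sets with this order was not counted. The pan-endothelial median followed the same pattern, at 11.36, 10.31 and 9.01 in Tie2-positive replicates 1, 2 and 3 against 5.65 to 5.98 on the Tie2-negative arrays. Measured against the Tie2-negative mean, Kdr was higher by 5.81, 5.13 and 3.46 in Tie2-positive replicates 1, 2 and 3, and Flt4 by 4.92, 4.24 and 1.90. In the probe sets with the highest mean, Vegfa and Vegfb were lowest in Tie2-positive replicate 1, the array with the lowest neutrophil and platelet medians of its population. On the Tie2-negative arrays, too, Vegfa and Vegfb were lowest in replicate 1, where the neutrophil median was 6.24 against 8.13 and 8.88 in replicates 2 and 3. The other Vegfa probe set did not follow this: it read 6.89, 6.73 and 6.74 on the Tie2-negative and 6.59, 6.46 and 6.88 on the Tie2-positive replicates 1, 2 and 3. The part of neutrophil and platelet transcripts in the Vegfa and Vegfb values was not tested. Markers of stroma, bone and cartilage, other cells that could make VEGF, showed medians of 5.56 to 5.82, 6.27 to 6.44 and 5.48 to 5.55 on the Tie2-negative arrays and of 5.86 to 6.71, 5.27 to 6.36 and 5.37 to 5.52 on the Tie2-positive arrays. Of these 3 lists 1 of 8 stromal genes rose, Cxcl12, 1 of 5 bone genes fell, Alpl, and 0 of 6 cartilage genes passed. These counts stand beside 4.86% of all genes called higher and 2.53% called lower. The medians hide single high values. The stromal gene Col3a1 read 6.16, 6.69 and 9.08 on the Tie2-negative and 7.96, 10.11 and 11.45 on the Tie2-positive replicates 1, 2 and 3. The bone gene Ibsp read 7.27 in Tie2-positive replicate 1 and at most 3.86 elsewhere. Of 6 pericyte and smooth muscle genes 0 passed, and 2, Tagln and Kcnj8, lay higher without overlap, as did 15.2% of all genes.

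**Figure D3:**
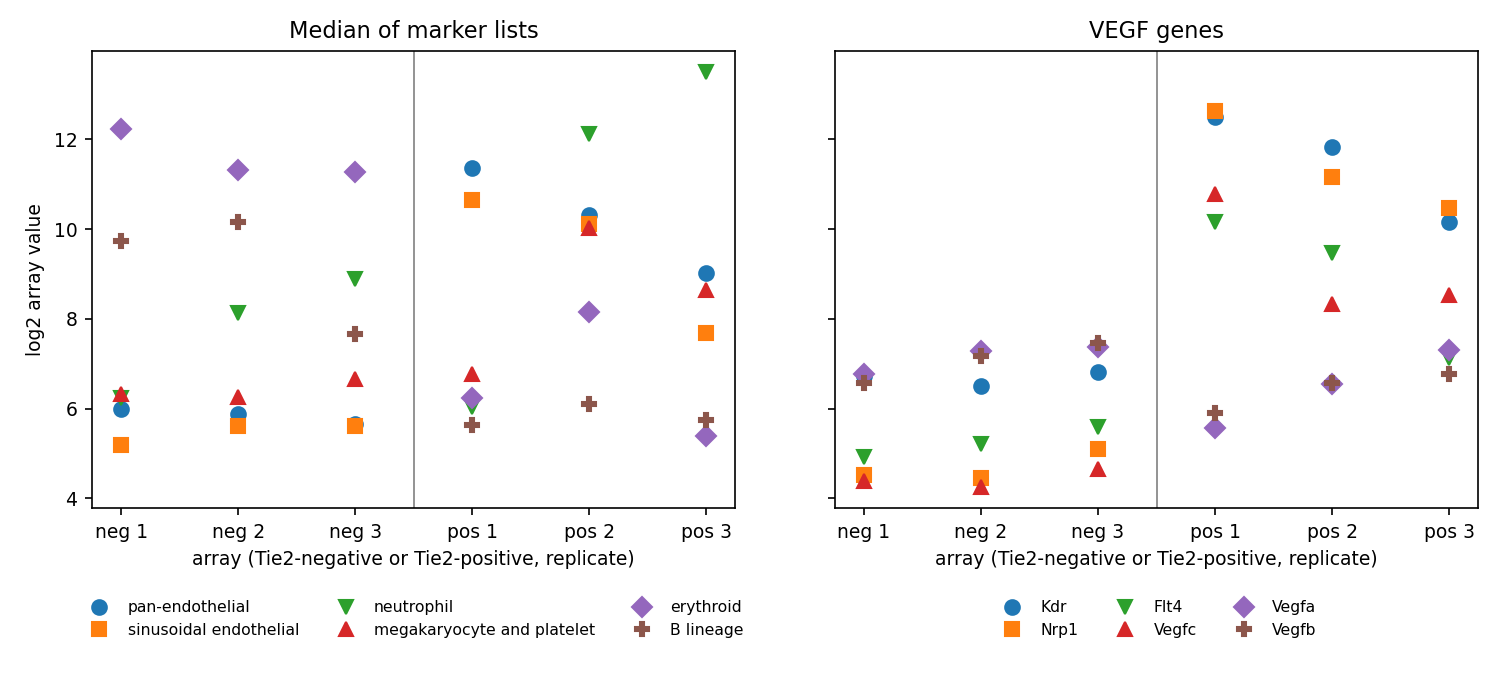
Median log2 value of 6 marker lists (left) and log2 values of 6 VEGF genes (right) on each array, Tie2-negative left of the line and Tie2-positive right of it. Kdr, Nrp1 and Flt4 are highest in Tie2-positive replicate 1, as is the pan-endothelial median, whereas the neutrophil median is 6.03 there against 12.11 and 13.51 in replicates 2 and 3.

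Genes known to act with the VEGF receptors at the endothelial surface were read next. The counts of this and the following lists stand beside 4.86% of all genes called higher and 2.53% called lower. Without Tie2-negative replicate 3, 251 of all 18193 genes were called higher. Without Tie2-positive replicate 2 it was 375, and without Tie2-positive replicate 3 it was 860. Of 10 measured receptor partners and regulators 5 rose and 0 fell, with a median change of 2.82 against -0.11 over all genes. Cav1, the coat protein of caveolae, rose by 5.93 ± 0.62 (SE, n = 3 and 3 arrays; adjusted p in limma 0.0104), and the junction protein gene Cdh5, whose product binds the Kdr receptor, by 5.58 ± 0.61. Ptprb, a phosphatase that restrains Tie2 and VEGF receptor signalling, read 5.73, 6.06 and 6.35 on the Tie2-negative and 12.06, 10.48 and 9.76 on the Tie2-positive replicates 1, 2 and 3. Its rise was 4.71 ± 0.57 (SE, n = 3 and 3 arrays), and that of Plxnd1, a semaphorin receptor of vessels, 3.87 ± 0.74. The fifth riser was Itgb3, named after its value was seen (2.84, limma adjusted p = 0.0482). Itgb3 encodes an integrin chain that platelets also carry. It read 6.75, 9.45 and 8.68 on Tie2-positive replicates 1, 2 and 3, in the same order as the megakaryocyte and platelet medians, whose part in it was not tested. Efnb2, which takes part in the uptake of VEGF receptors, changed by 2.59 without passing (limma adjusted p = 0.0759), and Gipc1, the neuropilin adaptor, by 0.16 (0.668). Both were named after their values were seen. The number of risers was 3 without Tie2-negative replicate 3 or Tie2-positive replicate 2.

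Most of the signal transducers inside the cell did not pass. Of 26 measured, 4 rose, 1 fell and 21 did not pass, with a median change of 0.50. Without overlap 11 lay higher and 7 lower, where 15.2% and 23.9% of all genes did. The risers were the Src-family kinases Yes1 (4.04 ± 0.63, SE, n = 3 and 3 arrays) and Fyn (1.95 ± 0.36), the adhesion adaptor Pxn (1.71 ± 0.33) and the GTPase Rac1 (1.05 ± 0.17, named after its value was seen). Src itself, also named after its value was seen, changed by -0.61 without overlap and did not pass (limma adjusted p = 0.135). Sphk1, a kinase that makes sphingosine 1-phosphate, read 10.47, 10.30 and 10.80 on the Tie2-negative and 5.37, 6.55 and 5.30 on the Tie2-positive replicates 1, 2 and 3. It fell by 4.78 ± 0.37 (SE) on the log2 scale (n = 3 per population; limma adjusted p = 0.0103). The Tie2-negative arrays were also those with the high erythroid and B-lineage medians given above, and the part of those cells in the Sphk1 values was not tested. Plcg1, the phospholipase that the Kdr receptor activates, changed by 1.25 without passing (limma adjusted p = 0.176; named after its value was seen). Without Tie2-negative replicate 3 or Tie2-positive replicate 2 the number of risers was 0. With a gene's probe sets averaged it was 1, and without x_at and s_at probe sets it was 2.

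Among 13 genes that VEGF is known to induce in endothelial cells, 5 rose and 0 fell, with a median change of 1.28. Cd34, a surface sialomucin also carried by blood progenitors, rose by 5.01 ± 1.02 (SE, n = 3 and 3 arrays; adjusted p in limma 0.0362), and on the Tie2-negative arrays it ran from 4.12 to 7.83. Esm1, a secreted proteoglycan of sprouting vessels, read 3.39, 3.68 and 3.51 on the Tie2-negative and 9.05, 7.53 and 7.10 on the Tie2-positive replicates 1, 2 and 3. Its rise was 4.37 ± 0.48 (SE, n = 3 and 3 arrays; adjusted p in limma 0.0104). The potassium channel subunit gene Kcne3 rose by 4.06 ± 0.73 and the early response gene Nr4a1 by 1.52 ± 0.34. Plaur, the urokinase receptor, rose by 1.28 (limma adjusted p = 0.0417; named after its value was seen). Dll4, the Notch ligand of tip cells, changed by 0.58 without passing (limma adjusted p = 0.256), as did Angpt2, an antagonist of Tie2, by 1.06 (0.172). Of the 13 genes 10 had a change above 0. Egr3 (-0.39, limma adjusted p = 0.248), F3 (-0.27 without overlap, 0.0831) and Dusp5 (-0.04, 0.926) went the other way without passing. Like Dll4 and Angpt2, they were named after their values were seen. The number of risers was 1 without Tie2-negative replicate 3, 2 without Tie2-positive replicate 2 or 3, and 3 with only genes above the 40th percentile of mean level.

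**Figure D4:**
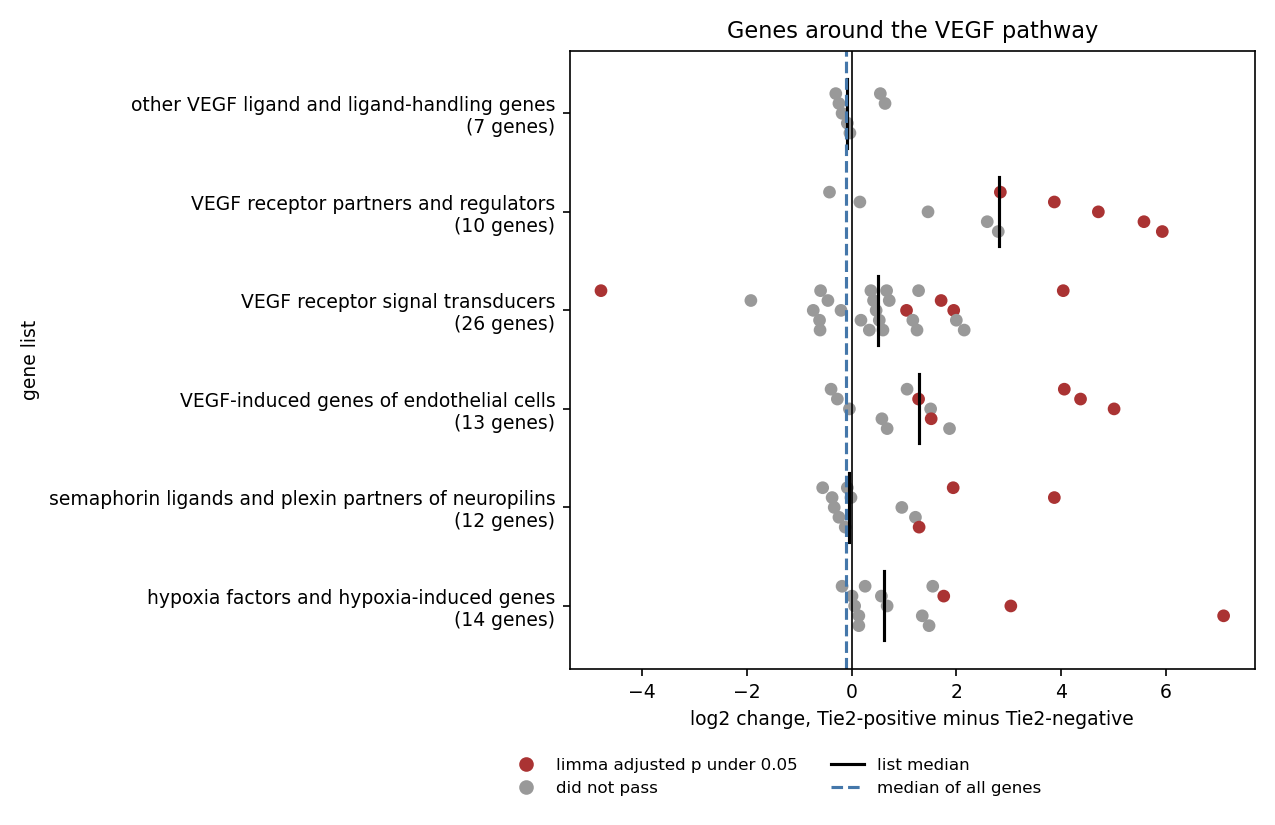
Log2 change of the genes in 6 lists around the VEGF pathway, 1 point per gene, red for an adjusted p under 0.05, with the list median as a black bar and the median of all genes (-0.11) as a dashed line. Receptor partners have the highest median (2.82). The medians of ligand-handling genes and of semaphorins and plexins lie near that of all genes, although 3 of the 12 semaphorins and plexins rose.

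Other ligand genes, and genes that store or process VEGF ligands, did not pass. Of 7 measured, 0 passed in limma, 2 lay at an unadjusted p under 0.05, where 28.6% of all genes did, and the median change was -0.08. With a gene's probe sets averaged, and with array weights, 1 rose. Hspg2, the basement membrane proteoglycan perlecan, changed by -0.30 (limma adjusted p = 0.484), and Thbs1, the thrombospondin that inhibits vessel growth, by 0.55 (0.0679). Vegfd, the closest relative of Vegfc, read 4.45 to 5.01 on the Tie2-negative and 4.36 to 4.83 on the Tie2-positive arrays, a change of -0.24 (limma adjusted p = 0.431; named after its value was seen). Of 12 class 3 semaphorins and plexins, the other partners of neuropilins, 3 rose and 0 fell, with a median change of -0.04. Besides Plxnd1 these were Sema3g, a semaphorin of arterial endothelium (1.94 ± 0.42, SE, n = 3 and 3 arrays), and Sema3a, a ligand of Nrp1, which read 4.98 to 5.02 on the Tie2-negative and 5.95 to 6.50 on the Tie2-positive arrays (1.29 ± 0.18, limma adjusted p = 0.0146). The number was 0 without Tie2-negative replicate 3 and 1 without Tie2-positive replicate 2.

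Hypoxia raises Vegfa in many cells, and 14 hypoxia factors and hypoxia-induced genes were read beside it. Of these 3 rose and 0 fell, with a median change of 0.63. The risers were Epas1, a hypoxia-inducible factor of endothelium (7.10 ± 0.51, SE, n = 3 and 3 arrays; limma adjusted p = 0.00983), Ndrg1 (3.04 ± 0.50) and Hif1a (1.76 ± 0.36). Ldha, a glycolytic enzyme, changed by 0.06 (limma adjusted p = 0.918; named after its value was seen). The number of risers was 1 without Tie2-negative replicate 3 or Tie2-positive replicate 2.

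Likeness to Kdr and to Vegfa over the 6 arrays was measured as Pearson's r among genes with a mean above the median of gene means. The 6 arrays fall into the sorted populations, and r is given as a description only. Genes picked this way share the direction of change of Kdr or Vegfa, and largely the order of arrays, by selection. The 5 genes most like Kdr were Ptprf, a receptor phosphatase, Cdh5, Tcim, the GTPase gene Rhoc and Plpp3, a lipid phosphatase, with r from 0.997 to 0.998, and all 5 rose, by 1.83 to 6.15. The 5 genes most like Vegfa were Sap30, Aagab, the splicing factor gene Srsf1, Skp2, a subunit of a ubiquitin ligase, and Hnrnph1, an RNA-binding protein, with r from 0.989 to 0.994. None of these 5 passed (limma adjusted p from 0.267 to 0.474), and their changes ran from -0.66 to -0.28. Srsf1 read 12.51, 12.77 and 12.84 on the Tie2-negative and 11.68, 12.34 and 12.66 on the Tie2-positive replicates 1, 2 and 3, lowest, like Vegfa, in Tie2-positive replicate 1.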

How the data were processed

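The 6 arrays were 3 Tie2-negative and 3 Tie2-positive samples. The deposited values, 1 for each probe set on each array, run from 2.56 to 14.78 and were taken from this range to be log2. The authors' summarisation and normalization are not given in the sources used here. Of 45101 probe sets 64 were controls and were not tested. Per a table of the platform's annotation, 34945 probe sets name 1 gene, 932 several and 9160 are unnamed here. A RefSeq table (GRCm38.p6) held 34741 of the 34945 by gene ID and changed 0 symbols.

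The 75th percentiles of the arrays (7.26 to 7.33 Tie2-negative, 7.44 to 7.52 Tie2-positive) differed by more than 0.1, so all values were quantile normalized, which also removes a difference that goes with the populations. Each gene took its probe set with the highest mean. In R 4.3.3, limma 3.58.1 (lmFit, then eBayes with trend) fitted all 6 arrays without covariates, with two-sided tests at a threshold of 0.05, and probe sets were tested singly in a second fit. The procedure was tested on simulated data in which each gene had the same spread in both populations. In the real data the spread often differed, as for Kdr (SD 0.16 Tie2-negative and 1.21 Tie2-positive), and the simulation did not cover this. Arrays give no read depth, and their number limits the precision.

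The members, gene lists and marker lists were chosen with earlier results of these data known. Named were all 9 members, up to 4 called genes of each list with the largest change (or, with none called, the 2 with the highest mean), and the 5 genes most like Kdr and Vegfa. Marker genes were named outside this rule, after their values were seen, and other genes outside it are marked. Lists are described by counts and medians. Some listed genes are not reported here. The alternatives were a replicate block, the deposited values, median centring, a filter at the 40th percentile, the mean of all probe sets, no x_at or s_at probe sets, all probe sets tested singly, other moderation, array weights and leaving out arrays. Offsets for linear values were not run, because the values are logs.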

Additional observations from a re-analysis of the deposited data

How the results depend on the processing

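No change of the 9 genes turned its sign in the 17 alternatives. The block, the filter, testing probe sets singly and other moderation leave the change as it is by construction, and leaving out arrays could not turn the 6 genes whose populations do not overlap. Kdr, Nrp1 and Vegfc passed in 14 of the 17, Flt4 in 11, Flt1 in 5, Nrp2 in 3, Vegfa in 1 and Vegfb and Pgf in 0. Those numbers include the fit of Tie2-positive replicate 1 alone, which took its spread from the Tie2-negative arrays only. The single pass of Vegfa came from that fit. The deposited values, median centring and robust estimation changed no call of a member or count by over 1.5 times. The median change of all genes was -0.12, -0.07 and -0.11 there. The deviations of same-numbered samples of the populations had r = 0.14, 0.00501 and 0.186. Each Tie2-negative sample had its highest r with its own number, though barely so in replicate 2 (0.00501 against 0.00316). Tie2-positive replicate 2 had its highest r with Tie2-negative replicate 3 (0.0551). The neutrophil medians also rose with the number in both populations. Not all r were above 0.1, and the labels do not say that the numbers pair samples, so the main fit was unpaired. Whether the samples were paired remains undecided. With the replicate block limma called 0 genes, higher or lower, in all genes, the members and every list (smallest adjusted p 0.0521; 5080 genes and 6 members at an unadjusted p under 0.05), at the same changes of 4.80 (Kdr), 3.69 (Flt4), 6.74 (Nrp1) and 4.78 (Vegfc), while 8 member probe sets passed in the fit over all probe sets. The filter left 3 VEGF-induced genes and 1 semaphorin or plexin gene. The mean of all probe sets gave 1 ligand-handling gene, 1 transducer, 2.77 for Flt1 and 2.13 for Flt4. Without x_at and s_at probe sets 2 transducers rose, and without the trend 2 fell. Testing probe sets singly gave 2246 calls (1525 higher, 721 lower). With array weights 4639 genes were called (2177 higher, 2462 lower), with 1 ligand-handling gene, 8 partners, 8 transducers and 6 hypoxia genes higher, 5 transducers, 1 VEGF-induced gene and 1 semaphorin or plexin gene lower, 15 member probe sets higher, and changes of 2.13 for Flt1 and 1.15 for Nrp2. For Tie2-positive replicate 1 alone (replicates 2 and 3 left out, chosen after seeing the data) 3637 genes were called (1995 higher, 1642 lower), with 8 partners, 10 transducers, 9 VEGF-induced and 5 hypoxia genes and 18 member probe sets higher, 1 member, 1 partner, 2 transducers and 1 member probe set lower, and changes of 3.76 (Flt1), 2.44 (Nrp2) and -1.58 (Vegfa). Over the 6 fits that each left out an array, calls ran from 0 to 2148 (0 to 1496 higher, 0 to 652 lower), members from 0 to 6, member probe sets from 0 to 14, partners and VEGF-induced genes each from 0 to 7, transducers from 0 to 6 higher and 0 to 1 lower, semaphorins and plexins from 0 to 3 and hypoxia genes from 0 to 4. Changes in these fits ran from 4.29 to 5.47 for Kdr, 1.65 to 3.00 for Flt1, 3.07 to 4.58 for Flt4, 6.14 to 7.22 for Nrp1, 0.70 to 1.86 for Nrp2, 4.00 to 5.22 for Vegfc, -1.09 to -0.22 for Vegfa, -0.90 to -0.40 for Vegfb and 0.12 to 0.51 for Pgf. The cause of these shifts was not tested. The number of arrays, and the lack of detection calls, limit what can be said of low values.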
